A study of Mus musculus with 27 samples.

Results

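The microtubule-associated protein tau, encoded by Mapt, and 8 genes for kinases that phosphorylate tau or for an activator of such a kinase were followed in single-nucleus RNA-seq of the mouse hippocampus. The members were taken by symbol from the gene rows of the count matrices, and 9 of 31053 gene IDs matched: Mapt, Gsk3b, Cdk5, Cdk5r1, Mark1, Mark2, Fyn, Ttbk1 and Dyrk1a. Each mouse gave 1 library of nuclei, in which UMIs (individual captured RNA molecules) were counted per gene and nucleus. The 27 mice fell into 6 groups by label: Cgas+/+ (5 mice, 3 males and 2 females), Cgas+/- (2 males), Cgas-/- (2 males), and P301S Cgas+/+, P301S Cgas+/- and P301S Cgas-/- (6 mice each, 3 males and 3 females). P301S mice carry a human tau transgene with a dementia-linked mutation under the mouse Prnp promoter. Cgas+/- and Cgas-/- mice have lost 1 or both working copies of Cgas, which encodes a sensor of cytosolic DNA. The labels give no age and no litter, so p-values measure the spread between these mice. Reads were aligned to mm10, so transgene reads placed on Mapt, if any, cannot be told apart from reads of the mouse gene.

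Tau binds and stabilizes axonal microtubules and is regarded as a protein of neurons, although oligodendrocytes also use it in their processes. Phosphorylation by kinases such as glycogen synthase kinase-3 beta, cyclin-dependent kinase 5 and the microtubule affinity regulating kinases loosens tau from microtubules, and hyperphosphorylated tau is what aggregates in tauopathies. Kinase activity is set largely by activator proteins, by phosphorylation and by location, none of which is read out by RNA in nuclei.

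Total UMIs per library ranged from 46091490 to 79484316, and 204852 of 241938 barcodes were kept. Median UMIs per barcode averaged 6194 ± 1840 (SD) in Cgas+/+, 5633 ± 444 in Cgas+/- and 4836 ± 583 in Cgas-/-. With P301S they averaged 4170 ± 1224, 6071 ± 666 and 5950 ± 1805 in the same order. P301S Cgas+/+ thus had the lowest mean depth and is in the tau, deletion and heterozygous contrasts below. The part of depth in them was not tested. Clusters of nuclei were named from marker genes, with the 9 members left out of the genes used to cluster. Names such as "excitatory neurons" stand for nuclei like that type. The 5 classes compared between genotypes were excitatory neurons (76801 nuclei), oligodendrocytes (45611), astrocytes (26862), inhibitory neurons (14687) and microglia (11393). Every one of the 9 microglia markers and 8 oligodendrocyte markers was highest in its own class, as were 6 of 11 excitatory markers (Slc17a6, Prox1, Tbr1, Cux2 and Rorb were highest in another class). The same markers named the clusters, so this is no independent check of the names. In 1 P301S Cgas+/+ mouse 50.6% of nuclei stayed unnamed, against 0.806% to 6.93% in the groups other than P301S Cgas+/+. The 6 P301S Cgas+/+ mice had 32.5% ± 25.0 (SD) cortical-like nuclei among excitatory neurons and the 6 P301S Cgas-/- mice 65.7% ± 17.95. The 2 Cgas-/- mice had 8.92% ± 5.69. The level of Cgas in microglia did not fall in step with the labels. Without P301S it was 35.4 ± 2.41 CPM in Cgas+/+ (n = 5), 19.1 ± 4.65 CPM in Cgas+/- (n = 2) and 27.3 ± 8.14 CPM in Cgas-/- (n = 2). With P301S it was 37.9 ± 11.55, 42.7 ± 11.2 and 51.4 ± 6.99 CPM in the same order (n = 6 each). UMIs do not show whether they lie in the part of Cgas that the allele removes, so the Cgas groups are named here as labelled. Any pair of libraries shared at most 0.57% of its barcodes. The file headers named 1 software version in 12 libraries and another in 15, and all 4 mice of Cgas+/- and Cgas-/- were in the former.

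Levels are given in CPM, the UMIs of a gene scaled to a common total over the UMIs of the same class in the same mouse, as mean ± SD over mice. Since CPM is a share of the RNA of a class, it does not show how much RNA a nucleus held. Classes were not tested against each other, because the clusters were made from the same nuclei.

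Mapt (ENSMUSG00000018411, chromosome 11, 104231390 to 104332090 on the plus strand, GRCm38) was highest in oligodendrocytes, not in neurons. Its level there was 2571 ± 352 CPM (n = 27, range 1984 to 3266), against 512 ± 52.4 CPM in excitatory neurons (n = 27, 406.9 to 629.1) and 503 ± 45.4 CPM in inhibitory neurons (n = 27). Oligodendrocytes exceeded excitatory neurons in 27 of 27 mice, by 3.92-fold to 6.44-fold, and the ranges did not overlap. The difference was thus larger than the spread between mice, while excitatory and inhibitory neurons differed by less than that spread.

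T cells, present in numbers only with P301S, held 645.4 ± 387.8 CPM of Mapt in P301S Cgas+/+ (n = 4). They held 570 ± 155.7 CPM in P301S Cgas+/- (n = 4) and 789.5 ± 166.9 CPM in P301S Cgas-/- (n = 5). Oligodendrocyte precursor cells (OPCs) held 476 ± 65.9 CPM of Mapt (n = 27) and astrocytes 367 ± 40.8 CPM (n = 27). Microglia held 65.5 ± 18.02 CPM (n = 27) and choroid plexus cells 26.5 ± 6.89 CPM (n = 10, among mice with at least 20 such nuclei), the lowest level of the 14 classes with at least 500 nuclei. Among excitatory subtypes, CA3 neurons stood at 633 ± 97.6 CPM (n = 22) and dentate granule neurons, the lowest subtype, at 429 ± 44.1 CPM (n = 26). CA3 was above dentate granule in 22 of 22 mice that had both, by 1.24-fold to 1.69-fold.

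**Figure D1:**
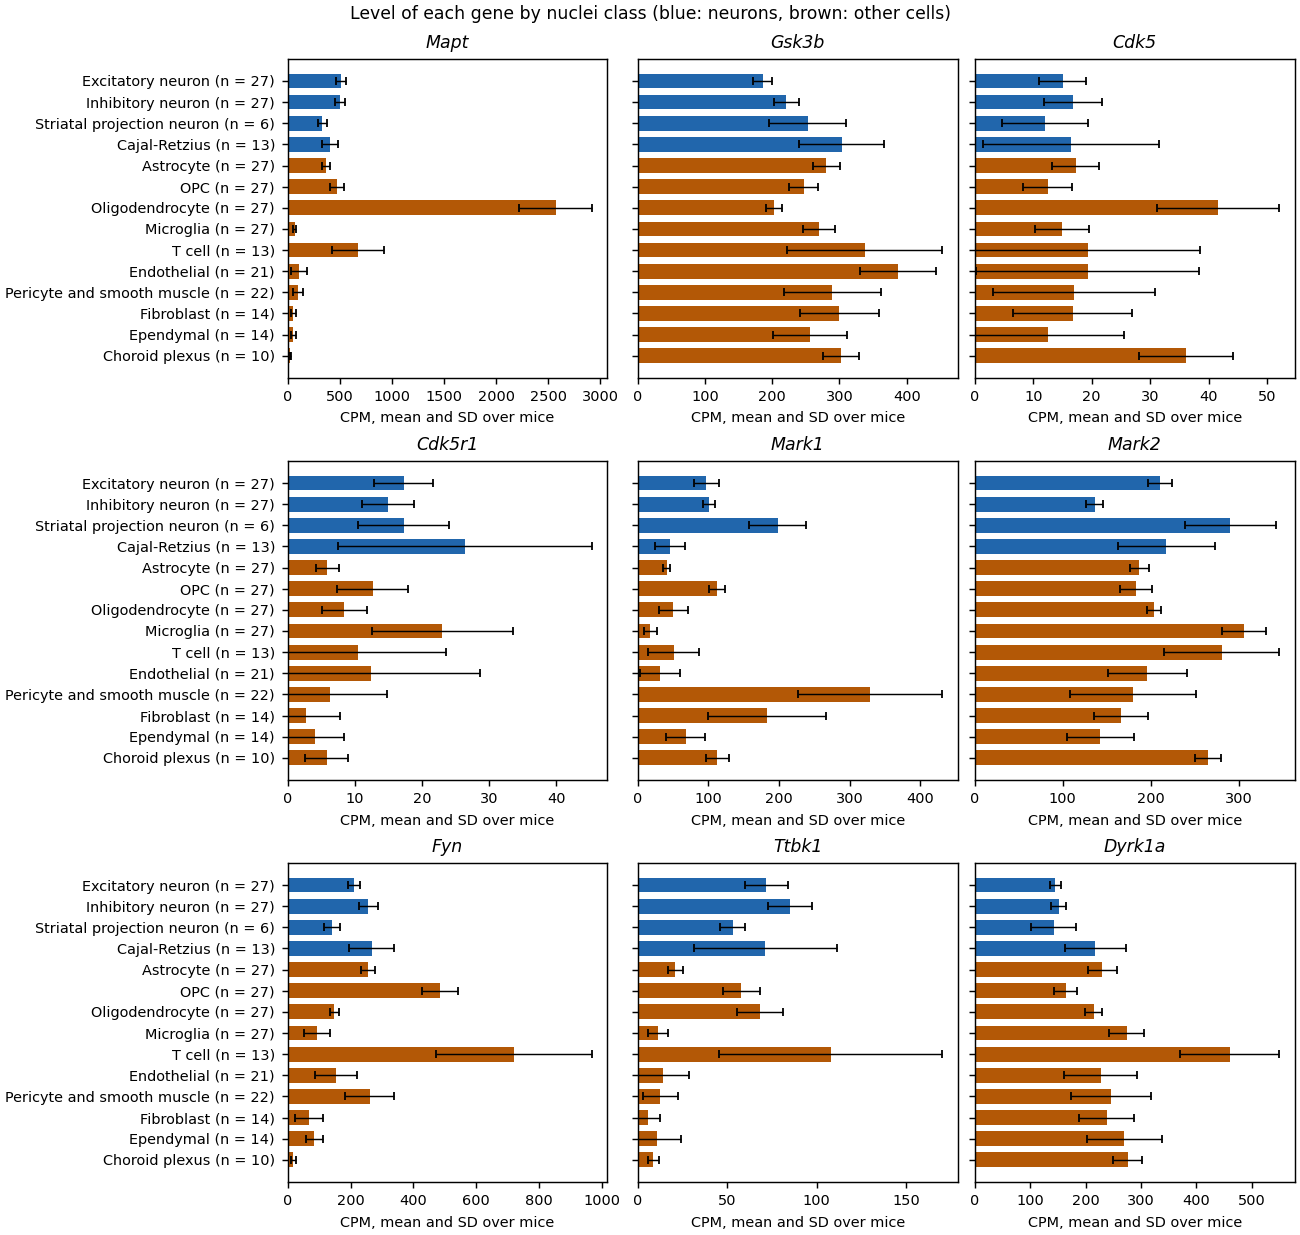
Bars show the mean level of each gene in CPM on a linear axis that starts at 0, 1 panel per gene, in 14 classes of nuclei (blue, neurons; brown, other cells), with whiskers for the SD over the n mice that had at least 20 nuclei of the class. Mapt and Cdk5 stand highest in oligodendrocytes at 2571 and 41.6 CPM, and Mark1 in pericytes and smooth muscle at 329 CPM.

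Free RNA in droplets gives neuronal UMIs to nuclei of other cells, and 12 genes used as neuron-only genes (Slc17a7, Snap25, Neurod6 and others) gauged it. Their median level was 8.35% of that in excitatory neurons in astrocytes (highest 16.1%, Snap25), 13.6% in oligodendrocytes (highest 28.7%), 11.1% in OPCs (highest 31.9%) and 19.5% in microglia (highest 34.0%). In astrocytes, oligodendrocytes and OPCs all 9 members stood above the highest neuron-only gene. In microglia 6 of 9 did, and Mapt (12.8% of the excitatory level), Mark1 (18.6%) and Ttbk1 (15.6%) were at or below the median, so UMIs of these 3 genes in microglia read as background.

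The genes whose levels followed Mapt most closely over the 14 classes were Syt11 (Pearson r = 0.976 of mean log2(CPM + 1), n = 14 classes, 8330 genes ranked), Gm11659 (r = 0.971), Kcna6 (r = 0.967), Otud7a (r = 0.932) and Tmem178b (r = 0.924). Syt11 encodes a synaptotagmin, and Kcna6 encodes a voltage-gated potassium channel subunit. Cdk5 and Cdk5r1 overlap no other annotated gene, while each of the other members overlaps 1 to 3 minor gene models. Gm11659 lies within the span of Mapt on the opposite strand (chromosome 11, 104250902 to 104259361), and whether the counting kept strands apart is not given in the sources used here, so reads shared by both were not tested. Among the members, Ttbk1 ranked 14 (r = 0.887) and Fyn 155 (r = 0.696), while Gsk3b ranked 7136 (r = -0.48). These r values describe 14 class means that share libraries and free RNA, and carry no test.

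Gsk3b (ENSMUSG00000022812, chromosome 16, 38089001 to 38246084), the kinase that phosphorylates tau at many sites, was broadly and evenly detected. Excitatory neurons had the lowest level of the 14 classes, 186 ± 14.3 CPM (n = 27, 157.5 to 219.7), and astrocytes had 281 ± 20.3 CPM (n = 27), higher in 27 of 27 mice. Endothelial cells were highest at 387 ± 56.6 CPM (n = 21), so the class means spanned 2.08-fold, the narrowest span of the 9 genes.

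Cdk5 (ENSMUSG00000028969, chromosome 5, 24418241 to 24423530) encodes a kinase that needs an activator subunit, and Cdk5r1 (ENSMUSG00000048895, chromosome 11, 80477023 to 80481184) encodes its main neuronal activator. The kinase and its activator had different class profiles. Cdk5 had its highest mean in oligodendrocytes at 41.6 ± 10.5 CPM (n = 27, 24.8 to 66.2), against 15.1 ± 4.03 CPM in excitatory neurons (n = 27, 7.74 to 24.7). It was higher in oligodendrocytes in 27 of 27 mice, by 2.13-fold to 3.86-fold. The ranges over mice did not overlap, but the highest excitatory value and the lowest oligodendrocyte value were nearly equal. Neighbouring classes in the order of Cdk5 levels differed by less than the larger of their SDs in 13 of 13 pairs.

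Cdk5r1 was instead lower in oligodendrocytes (8.42 ± 3.37 CPM, n = 27) than in excitatory neurons (17.3 ± 4.41 CPM, n = 27, 10.5 to 26.5). Astrocytes held 5.92 ± 1.77 CPM (n = 27), and fibroblasts 2.76 ± 5.10 CPM (n = 14, with a median of 0). Microglia held 23.04 ± 10.5 CPM (n = 27, 5.63 to 51.8), on 408 UMIs in all, which was above astrocytes in 27 of 27 mice and above excitatory neurons in 18 of 27. At 133% of the excitatory level, the microglial level was above all 12 neuron-only genes. Cajal-Retzius cells had the highest mean, 26.4 ± 18.97 CPM (n = 13), but neighbouring classes in the order of Cdk5r1 levels did not differ by more than the larger of their SDs, in 13 of 13 pairs.

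Mark1 (ENSMUSG00000026620, chromosome 1, 184896789 to 184999570) and Mark2 (ENSMUSG00000024969, chromosome 19, 7275396 to 7341860) encode microtubule affinity regulating kinases, which phosphorylate the repeats through which tau binds microtubules. Mark1 was highest in pericytes and smooth muscle at 329 ± 102 CPM (n = 22, 170.5 to 492.1), against 96.6 ± 17.6 CPM in excitatory neurons (n = 27, 76.7 to 145.3). The vascular level was higher in 22 of 22 mice and the ranges did not overlap. Striatal projection neurons (198 ± 40.3 CPM, n = 6) and fibroblasts (183.2 ± 83.3 CPM, n = 14) followed, and did not differ beyond their spread.

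Mark2 had its highest mean in microglia and its lowest in inhibitory neurons, although neighbouring classes in the order differed by less than the larger of their SDs in 13 of 13 pairs. Microglia were at 306 ± 24.7 CPM (n = 27, 253.9 to 365.5), above excitatory neurons (211 ± 13.7 CPM, n = 27, 189.8 to 242.7) in 27 of 27 mice and without overlap. Inhibitory neurons were at 136 ± 9.82 CPM (n = 27, 125.3 to 170.1), below excitatory neurons in 27 of 27 mice, also without overlap. The neuron classes thus differed by 1.55-fold in Mark2, whereas Mark1 stood at 101 ± 8.87 CPM in inhibitory neurons (n = 27), within the spread of excitatory neurons.

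Fyn (ENSMUSG00000019843, chromosome 10, 39368855 to 39565381), a Src-family tyrosine kinase that phosphorylates tau and acts in myelination and in T cell receptor signaling, changed most between the stages of the oligodendrocyte lineage. In committed oligodendrocyte precursors, the stage between OPC and oligodendrocyte marked by Bcas1, Enpp6 and Gpr17, Fyn reached a median of 5230 CPM over 27 mice (3676 to 7823), on 12469 UMIs from 433 nuclei. OPCs had 484 ± 58.3 CPM (n = 27, 405 to 646.9) and oligodendrocytes 148 ± 14.8 CPM (n = 27, 114.7 to 180.7). The committed stage was higher than either in 27 of 27 mice, by 11.1-fold over OPCs and 36.4-fold over oligodendrocytes as ratios of means, although a mouse gave only 2 to 53 such nuclei. Likely doublets were left out of these values, and with them the committed class would hold 773 nuclei instead of 433.

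Mapt followed a different course through the same stages, with a median of 472 CPM in OPCs, 1378 CPM in committed precursors (668.8 to 1993) and 2612 CPM in oligodendrocytes. The committed stage was above OPCs in 27 of 27 mice and above oligodendrocytes in 0 of 27. Fyn was therefore highest in the middle stage and Mapt in the last. By genotype, Fyn in committed precursors averaged 6034 ± 1194 CPM over the 5 Cgas+/+ mice, 5140 ± 810 CPM over the 6 of P301S Cgas+/+ and 5377 ± 779 CPM over the 6 of P301S Cgas-/-, with overlapping ranges. Mapt in committed precursors averaged 1802 ± 151.8 CPM over the 5 Cgas+/+ mice (1644 to 1993) and 1212 ± 381.5 CPM over the 6 of P301S Cgas+/+ (668.8 to 1617), and these ranges did not overlap. Mapt was the 1 member of 9 without overlap between these groups at this stage, where 1% of the 7568 genes with a mean of at least 1 UMI per mouse did not overlap, and the other 8 members overlapped. In the other groups Mapt averaged 1468 CPM in Cgas+/- (1362 to 1574), 1366 CPM in Cgas-/- (790.1 to 1943), 1165 ± 398 CPM in P301S Cgas+/- (689.3 to 1678) and 1312 ± 425 CPM in P301S Cgas-/- (794.4 to 1966). Cgas+/- also lay below Cgas+/+ without overlap, while the ranges of Cgas-/-, P301S Cgas+/- and P301S Cgas-/- overlapped that of Cgas+/+. The stage had 34 nuclei in all in Cgas+/+ and 151 in P301S Cgas+/+, too few per mouse for the test by class.

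**Figure D2:**
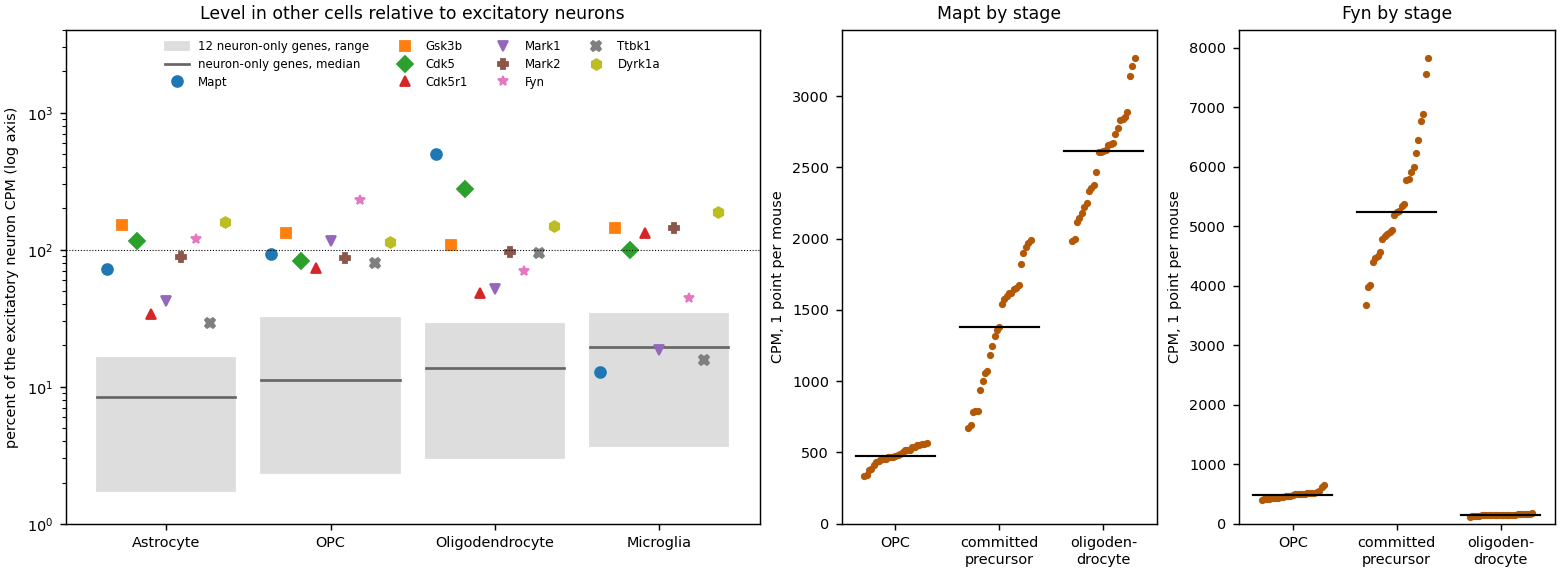
The left panel shows the level of each gene in 4 non-neuronal classes as a percent of its level in excitatory neurons on a log axis, with the range (gray) and median (line) of 12 neuron-only genes; Mapt, Mark1 and Ttbk1 in microglia are the 3 points inside a gray box. The other panels show Mapt and Fyn in CPM by stage of the oligodendrocyte lineage, 1 point per mouse sorted by value, with lines at the medians (472, 1378 and 2612 CPM for Mapt; 491, 5230 and 147 CPM for Fyn).

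Outside that lineage Fyn was highest in T cells at 719 ± 249 CPM (n = 13, all with P301S, 410.1 to 1415), and microglia held 93.3 ± 41.1 CPM (n = 27). Among excitatory subtypes Fyn was highest in CA3 neurons (265 ± 43.4 CPM, n = 22) and lowest in cortical neurons (188 ± 18.6 CPM, n = 27). Dentate granule neurons (252 ± 24.7 CPM, n = 26) exceeded cortical neurons in 26 of 26 mice.

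Ttbk1 (ENSMUSG00000015599, chromosome 17, 46442448 to 46487675) encodes tau tubulin kinase 1, known mainly from neurons. It was found at 71.9 ± 11.8 CPM in excitatory neurons (n = 27, 48.6 to 90.4), 84.9 ± 12.3 CPM in inhibitory neurons (n = 27) and 68.5 ± 12.9 CPM in oligodendrocytes (n = 27, 42.1 to 87.9), the last within the spread of excitatory neurons. Astrocytes held 20.9 ± 4.10 CPM (n = 27), with a range of 11.6 to 27.9 CPM that did not overlap that of excitatory neurons. The highest mean of the 14 classes was in T cells (107.9 ± 62.3 CPM, n = 13, all with P301S, on 1 to 19 UMIs per mouse), which did not differ from inhibitory neurons beyond its spread.

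Dyrk1a (ENSMUSG00000022897, chromosome 16, 94570010 to 94695517) encodes a kinase that phosphorylates tau and primes it for Gsk3b. It was lower in both neuron classes than in microglia, astrocytes and oligodendrocytes, and highest in T cells (460.4 ± 89.6 CPM, n = 13, all with P301S). Excitatory neurons had 145 ± 10.1 CPM (n = 27, 126 to 175.2) and inhibitory neurons 151 ± 13.1 CPM (n = 27), against 274 ± 31.3 CPM in microglia (n = 27, 212.6 to 334.4), 230 ± 26.3 CPM in astrocytes (n = 27) and 215 ± 15.8 CPM in oligodendrocytes (n = 27). Microglia exceeded excitatory neurons in 27 of 27 mice without overlap. Within excitatory neurons, dentate granule neurons (179 ± 14.5 CPM, n = 26) were above CA1 neurons (121 ± 14.4 CPM, n = 27) in 26 of 26 mice that had both.

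Levels of different genes were also set side by side as CPM per kb of the gene's span, since nuclear RNA holds introns. Whether UMIs of a 3' kit scale with the span was not tested. On that scale excitatory neurons held 5.08 ± 0.52 CPM per kb of Mapt, 4.15 ± 1.1 of Cdk5r1, 3.17 ± 0.206 of Mark2, 2.84 ± 0.762 of Cdk5 and 1.59 ± 0.262 of Ttbk1 (n = 27 for each). Gsk3b (1.18), Dyrk1a (1.16), Fyn (1.07) and Mark1 (0.94) followed. In oligodendrocytes Mapt reached 25.5 ± 3.50 CPM per kb. The short genes Cdk5 and Cdk5r1, with spans of 5.29 and 4.16 kb, have far shorter spans than the other members. In CPM without this scaling they were the lowest members in excitatory neurons. The split of UMIs between exons and introns was not measured, so the whole order holds for this scaling only.

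The comparison that asks whether the tau transgene goes with a change in tau or its kinases is P301S Cgas+/+ against Cgas+/+. In excitatory neurons Mapt read 444.8, 459.7, 565.5, 532.6 and 481.3 CPM in the 5 Cgas+/+ mice, and between 406.9 and 549.4 CPM with a median of 515 CPM in the 6 P301S Cgas+/+ mice. The groups overlapped, and the log2 fold change was 0.03 ± 0.087 (SE). Over the 9 members and 5 classes, edgeR's quasi-likelihood test called 0 of 45 member and class pairs at an adjusted p under 0.05, where 0.0107% of all 65377 gene and class pairs tested were called. At an unadjusted p under 0.05 there was 1 member pair, against 6.98% of all pairs, and DESeq2 called 0.

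The pair with the unadjusted call was Cdk5r1 in microglia, with a log2 fold change of -1.10 ± 0.325 (edgeR adjusted p = 0.114). The other 44 pairs lay between -0.71 ± 0.394 (Mark1 in oligodendrocytes) and 0.52 ± 0.342 (Fyn in microglia). The median over the 45 pairs was 0.01, and that over all genes was 0.00 (-0.0035). For 0 of 45 pairs did the 2 groups not overlap in CPM, where 0.619% of all pairs did not overlap. In oligodendrocytes Mapt was at 2333 ± 240.8 CPM in Cgas+/+ (n = 5, 1984 to 2612). In P301S Cgas+/+ it was at 2761 ± 251.4 CPM (n = 6, 2608 to 3266). These ranges overlapped only between 2608 and 2612 CPM, and the pair was not among the unadjusted calls.

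The deletion contrast, P301S Cgas-/- against P301S Cgas+/+, asks whether loss of Cgas goes with a change in these genes in the presence of the transgene. It called 0 of 45 member pairs, where 0.00153% of all pairs were called, and 0 by DESeq2. At an unadjusted p under 0.05 there were 2, against 6.82% of all pairs, both of them Fyn in neurons. In excitatory neurons Fyn was at 225 ± 20.5 CPM in P301S Cgas+/+ (n = 6, 188.2 to 245.2, median 231) and 198 ± 14.9 CPM in P301S Cgas-/- (n = 6, 172.3 to 212.5, median 200.6), with overlapping ranges and a log2 fold change of -0.25 ± 0.103 (edgeR adjusted p = 0.278). In inhibitory neurons Fyn was at 271.5 ± 30.4 and 236 ± 20.9 CPM (n = 6 each), a log2 fold change of -0.24 ± 0.114 (adjusted p = 0.945).

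The share of cortical neurons moved with this contrast, from 32.5% to 65.7% of excitatory neurons, and Fyn was lowest in cortical neurons. In hippocampal excitatory neurons alone the log2 fold change of Fyn was -0.15 ± 0.115 (adjusted p = 0.999), in cortical neurons -0.16 ± 0.091 (adjusted p = 1.0) and in dentate granule neurons -0.05 ± 0.102 (adjusted p = 1.0). The part of composition in the pooled value was not tested further. The groups overlapped in 45 of 45 member pairs, where 0.158% of all pairs did not overlap.

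The heterozygous contrast, P301S Cgas+/- against P301S Cgas+/+, called 0 of 45 pairs, where 0% of all pairs were called, and 0 by DESeq2. At an unadjusted p under 0.05 there were 2 member pairs, against 5.45% of all pairs. These were Cdk5r1 in astrocytes (log2 fold change 0.55 ± 0.259, edgeR adjusted p = 1.0) and Mark1 in excitatory neurons (0.29 ± 0.133, adjusted p = 0.398). Mark1 in excitatory neurons was at 88.1 ± 10.45 CPM in P301S Cgas+/+ (n = 6, 76.7 to 106.8, median 87.5) and 111.5 ± 21.85 CPM in P301S Cgas+/- (n = 6, 85.3 to 145.3, median 110). Over all mice it was at 109 ± 20.7 CPM in cortical neurons and 77.2 ± 20.7 CPM in CA1 neurons (n = 27 each), and cortical neurons made up 63.0% ± 15.3 (n = 6) of excitatory neurons in P301S Cgas+/-. Dentate granule neurons differed less from cortical ones in P301S Cgas+/+, at 97.7 ± 8.02 against 100.8 ± 17.7 CPM (n = 6 each). In P301S Cgas+/- the 2 subtypes held 93.7 ± 8.42 and 124.4 ± 20.6 CPM of Mark1 (n = 6 each). In hippocampal excitatory neurons the log2 fold change of Mark1 was 0.07 ± 0.135 (adjusted p = 1.0), and within cortical neurons 0.29 ± 0.141 (adjusted p = 0.828). The groups overlapped in all 45 pairs, where 0.151% of all pairs did not overlap.

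**Figure D3:**
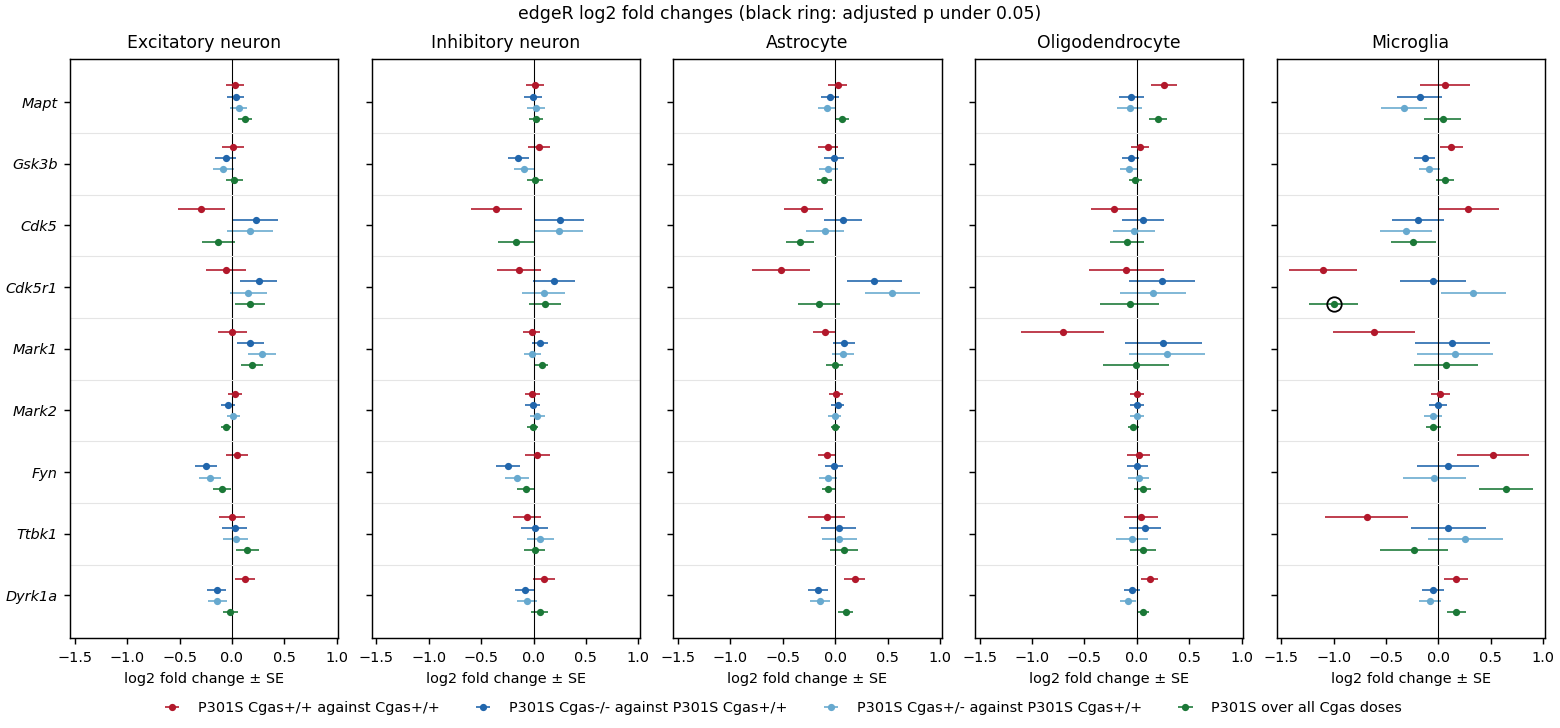
Points are edgeR log2 fold changes with bars of 1 SE for the 9 genes in 5 classes, in 4 comparisons given by color, and a black ring marks an adjusted p under 0.05. The only ring is Cdk5r1 in microglia with P301S over all Cgas doses, at -0.998. Among the wide bars are those of Mark1, Ttbk1, Fyn and Cdk5r1 in microglia and of Mark1 and Cdk5r1 in oligodendrocytes.

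Within the excitatory subtypes CA1, cortical and dentate granule (mice with fewer than 20 dentate granule nuclei left out, an alternative chosen after seeing the data) edgeR called 0 of 27 member pairs in each contrast. Over all genes 0.0142% of pairs were called in the tau contrast, 0% in the deletion contrast and 0% in the heterozygous one. At an unadjusted p under 0.05 the members had 1, 0 and 1 pairs, against 3.25%, 3.3% and 4.79% of all pairs. The former was Dyrk1a in dentate granule neurons in the tau contrast (log2 fold change 0.20 ± 0.090, adjusted p = 1.0) and the latter Mark1 in cortical neurons, as above.

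**Figure D4:**
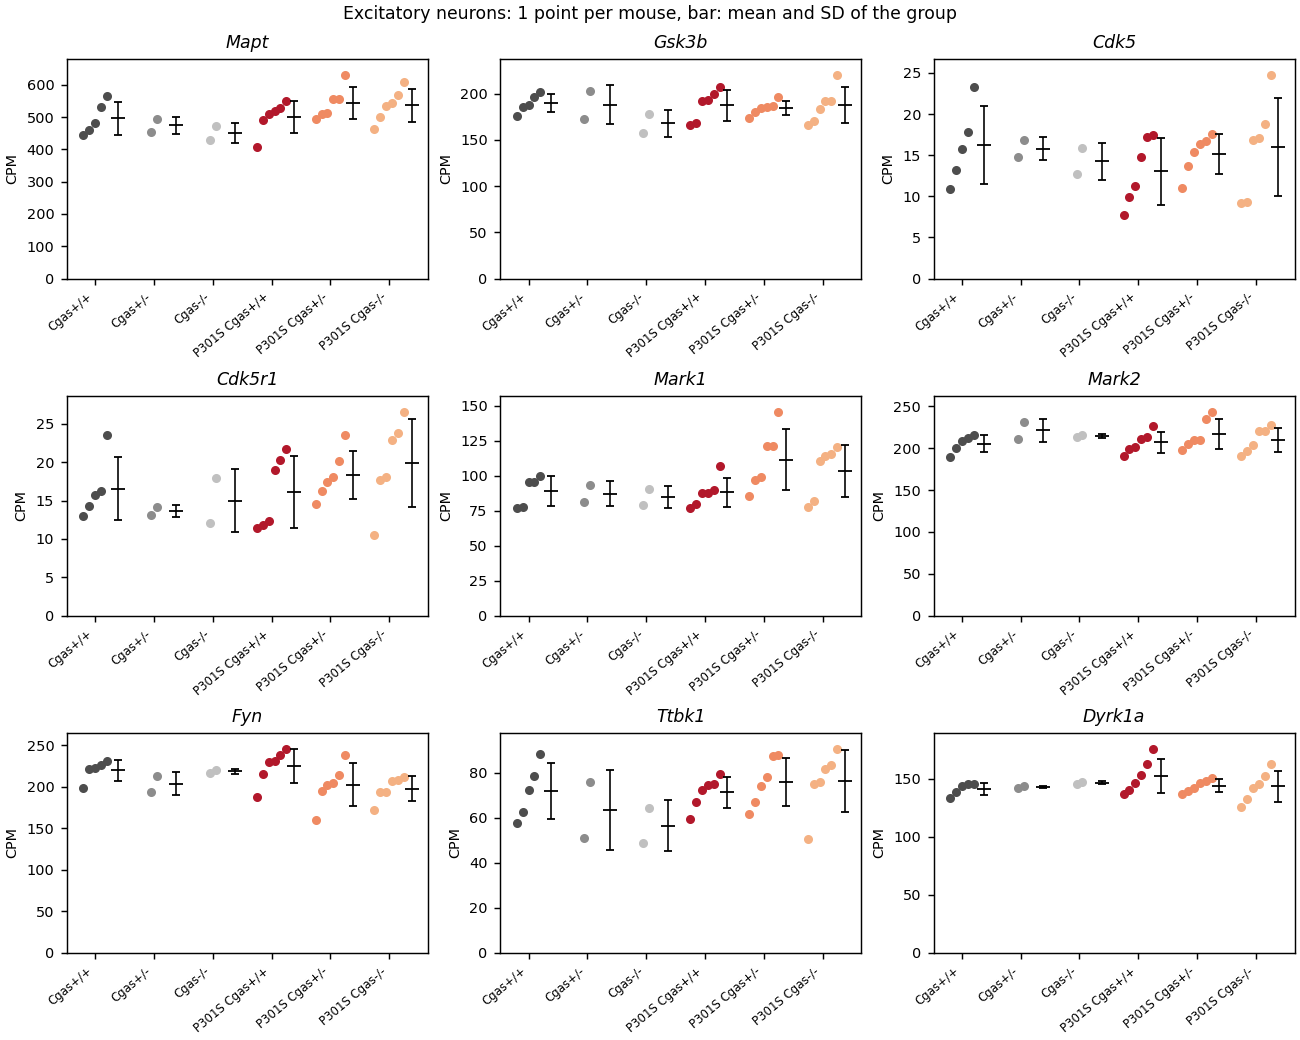
Each point is the level of a gene in excitatory neurons of 1 mouse in CPM, sorted by value within its genotype group, with the mean and SD of the group beside it and axes that start at 0. For each of the 9 genes the groups of the tau, deletion and heterozygous contrasts overlap, and over all mice Mapt lies between 406.9 and 629.1 CPM.

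Setting all 18 P301S mice against all 9 mice without the transgene, with each Cgas dose weighted equally, gave 1 call among the 45 member pairs, where 2.94% of all 67990 pairs were called. At an unadjusted p under 0.05 there were 4 member pairs, against 15.7% of all pairs. The call was a lower level of Cdk5r1 in microglia, the class in which 11.6% of all genes were called and 4.16% were called lower with P301S. Without P301S the level read 51.8, 17.1, 30.45, 41.0 and 31.7 CPM in the 5 Cgas+/+ mice, 29.8 and 33.2 CPM in Cgas+/-, and 34.3 and 24.9 CPM in Cgas-/-. With P301S it ranged from 8.62 to 28.8 CPM (median 15.05) in P301S Cgas+/+, 15.6 to 32.5 CPM (median 19.04) in P301S Cgas+/- and 5.63 to 27.1 CPM (median 14.4) in P301S Cgas-/-.

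The mean was 32.7 ± 9.71 CPM without (n = 9, 145 UMIs) and 18.2 ± 7.08 CPM with P301S (n = 18, 263 UMIs). The ranges overlapped, and 9 of the 18 P301S mice lay below the lowest mouse without the transgene. The log2 fold change was -0.998 ± 0.236 (edgeR adjusted p = 0.00818). In the other 4 classes the same comparison gave log2 fold changes of Cdk5r1 between -0.15 ± 0.196 and 0.17 ± 0.142, and 0 of these passed. The difference between classes was not tested. DESeq2 also called Cdk5r1 in microglia (-0.998 ± 0.25, adjusted p = 0.00243).

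The call rested on few UMIs, 6 to 28 per mouse, and on the 9 mice without P301S. Without Cgas+/- replicate 2 the log2 fold change was -0.95, and without Cgas-/- replicate 1 it was -0.90, with adjusted p-values of 0.0745 and 0.0517, and the call held when any other single mouse was left out (25 of 27). Within libraries of header version 3.0.2 the level was 31.8 ± 11.6 CPM without (n = 6) and 17.9 ± 5.58 CPM with P301S (n = 6), and within version 3.1.0 it was 34.4 ± 5.76 CPM (n = 3) and 18.4 ± 7.95 CPM (n = 12). With the version as a term the log2 fold change was -0.90 ± 0.239 (adjusted p = 0.0207).

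The sum of the 12 neuron-only genes in microglia was also lower with P301S, at 1514 ± 477 CPM (n = 18, 787 to 2368) against 2061 ± 410 CPM (n = 9, 1263 to 2598). It was lower too in astrocytes (714.1 against 935 CPM) and oligodendrocytes (1254 against 1609 CPM), where the log2 fold change of Cdk5r1 was -0.15 ± 0.196 and -0.07 ± 0.283. Of the 11 neuron-only genes tested there, 10 had a log2 fold change below 0, with Slc17a7 (-0.87 ± 0.217, adjusted p = 0.011) and Celf4 (-0.55 ± 0.182, adjusted p = 0.0473) called lower. The part of neuronal RNA in the lower Cdk5r1 of microglia was not tested.

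**Figure D5:**
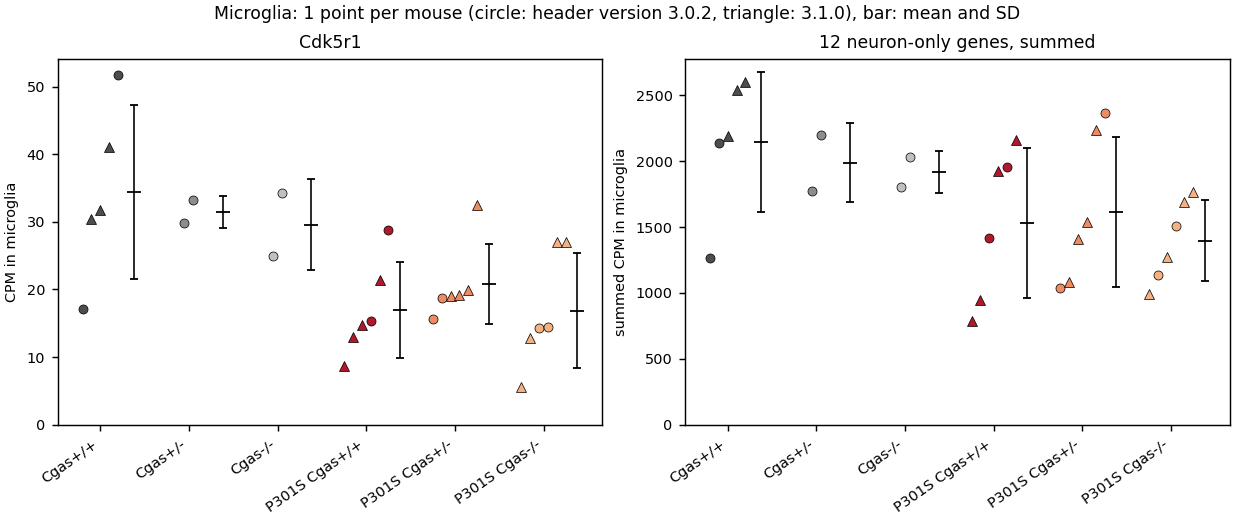
The left panel shows Cdk5r1 and the right panel the sum of 12 neuron-only genes in microglia, in CPM, 1 point per mouse (circle, header version 3.0.2; triangle, 3.1.0) by genotype group, with the mean and SD beside each group and axes that start at 0. Both are lower on average with P301S (18.2 against 32.7 CPM and 1514 against 2061 CPM), and the points of mice with and without the transgene overlap in both.

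The other unadjusted calls with P301S were Fyn in microglia, Cdk5 in astrocytes and Mapt in oligodendrocytes. Fyn in microglia read 65.9, 51.2, 100.7, 76.2 and 70.9 CPM in Cgas+/+, 59.7 and 75.8 CPM in Cgas+/- and 56.4 and 58.1 CPM in Cgas-/-, and had a median of 95.7 CPM (54.2 to 222) in the 18 P301S mice. The log2 fold change was 0.65 ± 0.254 (edgeR adjusted p = 0.103), and 2 mice at 222 and 192 CPM stood apart from their groups. Cdk5 in astrocytes was at 16.4 ± 3.68 CPM with (n = 18) and 18.99 ± 4.36 CPM without P301S (n = 9), a log2 fold change of -0.34 ± 0.135 (adjusted p = 0.183).

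Mapt in oligodendrocytes read 1984, 2378, 2470, 2612 and 2224 CPM in Cgas+/+, 2252 and 2355 CPM in Cgas+/- and 2146 and 2331 CPM in Cgas-/-. The 18 P301S mice had 2704 ± 344 CPM (median 2705, 1999 to 3266), against 2306 ± 182.7 CPM in the 9 without. The ranges overlapped, and the log2 fold change of 0.20 ± 0.088 did not pass (adjusted p = 0.307).

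The interaction of P301S with Cgas deletion called 0 of 45 member pairs, where 0.116% of all pairs were called, and 1 had an unadjusted p under 0.05 against 8.41% of all pairs. Cgas-/- against Cgas+/+ without P301S, with 2 and 5 mice, also called 0, where 0% of all pairs were called, with 1 member at an unadjusted p under 0.05 against 4.18% of all pairs. In both edgeR comparisons that member was Mark1 in microglia (log2 fold change 1.49 ± 0.686 and -1.36 ± 0.592, adjusted p = 1 in each), whose UMIs read as background there.

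Beyond the members, lists of 42 genes taken as other tau kinases and activators, 26 as tau phosphatases and their regulators and 20 as other microtubule-associated proteins were counted. In the tau, deletion and heterozygous contrasts edgeR called 0 pairs of each list. At an unadjusted p under 0.05 the kinases had 11, 18 and 10 of 198 pairs, the phosphatases 7, 3 and 5 of 128, and the microtubule-associated proteins 6, 10 and 6 of 99. Over all gene and class pairs the shares were 6.98%, 6.82% and 5.45%. DESeq2 called Map4 in microglia in the tau contrast and Stmn1 in excitatory neurons in the deletion contrast, and no other pair of these lists in the 3 contrasts.

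The 3 pairs of each list with the smallest p did not pass in any of these contrasts. In the tau contrast the pairs of the first list were Csnk1e (-0.38 ± 0.123) and Prkce (-0.75 ± 0.241) in microglia and Cdk5rap2 in astrocytes (0.68 ± 0.217). Their edgeR adjusted p ran from 0.138 to 0.27. A place on that list does not make a gene a kinase. The phosphatases were Ppme1, a phosphatase methylesterase (0.73 ± 0.193, adjusted p = 0.0989), and Ppp2r5e (0.27 ± 0.118) in microglia and Ppp1cc in oligodendrocytes (-0.73 ± 0.269). The microtubule-associated proteins were Stmn3 (-0.82 ± 0.237, adjusted p = 0.106), Map4 (0.34 ± 0.11) and Map1b (-0.63 ± 0.243), all in microglia.

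In the deletion contrast the kinases were Prkaa2 in excitatory neurons (0.47 ± 0.156, adjusted p = 0.2055) and Sgk1 (-0.49 ± 0.169) and Csnk1e (0.32 ± 0.115) in microglia. The phosphatases were Ppp2cb in astrocytes (0.31 ± 0.131) and Ppp2r5a (0.30 ± 0.124) and Ptpa (0.15 ± 0.0635) in excitatory neurons. The microtubule-associated proteins were Stmn1 (0.92 ± 0.245, adjusted p = 0.196), Map1b (-0.33 ± 0.0974) and Dclk2 (-0.37 ± 0.119) in excitatory neurons, the class whose cortical share changed, and its part in these values was not tested.

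In the heterozygous contrast the kinases were Prkaca in astrocytes (0.32 ± 0.09005) and Camk2g (0.34 ± 0.102, adjusted p = 0.199) and Csnk1e (0.42 ± 0.155) in excitatory neurons. The phosphatases were Ppme1 (0.41 ± 0.122, adjusted p = 0.2), Ppp2r5a (0.30 ± 0.124) and Ptpa (0.15 ± 0.0635) in excitatory neurons. The microtubule-associated proteins were Dclk2 (-0.43 ± 0.119, adjusted p = 0.197) and Stmn1 (0.75 ± 0.245) in excitatory neurons and Map1b in astrocytes (-0.53 ± 0.19).

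With P301S over all Cgas doses the kinases had 7 called pairs of 199 (2 higher, 5 lower), the phosphatases 3 of 129 (1 higher, 2 lower) and the microtubule-associated proteins 4 of 100 (2 higher, 2 lower), where 2.94% of all pairs were called. Of these 14 pairs 11 were in microglia, the class in which 11.6% of all genes were called. The kinases named are the 5 pairs with the smallest adjusted p. In microglia the kinase Prkcb rose (0.48 ± 0.117, adjusted p = 0.0102), as did Ppme1 (0.57 ± 0.162, adjusted p = 0.022) and Map4 (0.28 ± 0.082, adjusted p = 0.0271), a broadly expressed microtubule-associated protein.

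UMIs of other genes were lower in the microglial class with P301S, where the neuron-only sum was lower as well (1514 against 2061 CPM). The log2 fold change was -0.83 ± 0.187 for Prkca (adjusted p = 0.00725), -0.63 ± 0.179 for Prkce (adjusted p = 0.0256), -0.61 ± 0.174 for Map1b (adjusted p = 0.0221), -0.30 ± 0.091 for Csnk1e (adjusted p = 0.0281) and -0.25 ± 0.072 for the calcineurin subunit Ppp3ca (adjusted p = 0.0239). The part of neuronal RNA in these values was not tested. In excitatory neurons Stmn4 rose (0.47 ± 0.116, adjusted p = 0.0329), and Dclk2 fell by 0.38 ± 0.097 (adjusted p = 0.0383) and Prkaa1, a catalytic subunit of AMP-activated kinase, by 0.24 ± 0.064 (adjusted p = 0.0422). The cortical-like share of excitatory nuclei averaged 40.6% in Cgas+/+, 29.2% in Cgas+/- and 8.92% in Cgas-/-. With P301S it averaged 32.5%, 63.0% and 65.7% in the same order, and its part in these excitatory values was not tested. The median log2 fold change in microglia was -0.12 over the kinases, -0.15 over the phosphatases and -0.01 over the microtubule-associated proteins, against 0.00 (3.06e-04) over all genes.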

How the data were processed

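Nuclei of the hippocampus of 27 mice were profiled with a droplet 3' kit, 1 library per mouse. The deposited values are raw UMI counts per gene and barcode. The submitters' processing notes name Cell Ranger 3.1.0, the build mm10 and Seurat 3.0 for the authors' work. The matrix headers of 12 libraries name version 3.0.2, and the annotation release is not given in the sources used here. Gene positions are from GRCm38 with the GENCODE annotation, matched by ID.

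Kept barcodes had 200 to 4000 genes and no more than 5% of UMIs from mitochondrial genes, and likely doublets (Scrublet, at an expected rate proportional to the barcodes of a library) were removed, 16429 in all. Over the gene maximum lay 20030 barcodes. Nuclei were clustered with scanpy 1.11.5 and igraph 0.11.9 in Python 3.11.15 (2000 variable genes without the members, 30 components, 15 neighbours, Leiden resolution 1). Of 67 clusters, 12 with 13181 nuclei (6.43%) stayed unnamed. A name needed 3 markers in at least 10% of nuclei at a log2 fold above 0.5. A cluster stayed unnamed where another class scored over 50% of the best score, or where it scored under 40% of the best cluster of its class. This rule was revised after cluster markers were seen and before groups were compared.

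UMIs were summed per mouse and class and tested with edgeR 4.0.16 in R 4.3.3 (TMM, filterByExpr, robust quasi-likelihood, sex as covariate) over all genes of a class, with Benjamini-Hochberg adjustment. The tests covered the 5 classes named above and excitatory subtypes with at least 20 nuclei in every one of the 23 mice. OPCs, with at least 132 nuclei in every mouse, were not among the classes tested between genotypes. The tau, deletion and heterozygous contrasts used the 23 mice of 4 groups, and the others all 27. DESeq2 1.42.0, other filters and the omission of each mouse were alternatives. The edgeR fits were tested on simulated data in excitatory neurons and microglia only, for the tau contrast and for P301S over all Cgas doses. The deletion and heterozygous contrasts and the other classes were not simulated. CPM with SD covers counting error and differences between mice together, and pooled intervals cover counting error only. Of the other lists, up to 5 called pairs per list and contrast were named, or, with 0 called, up to 3 with the smallest p (given for the tau, deletion and heterozygous contrasts). The members and lists were chosen with earlier results of these data known. Some genes of these lists that the naming rule would name are not reported here.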

Additional observations from a re-analysis of the deposited data

Results flagged for a closer look

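Of 180 sets of mice of 1 group (9 genes, 5 classes, the 4 groups of 5 or 6 mice), 12 (6.67%) held a mouse whose gap to the nearest other mouse was above Dixon's critical value for its group size, and chance gives about 1 in 20. Mapt in oligodendrocytes read 3266 CPM in P301S Cgas+/+ replicate 3, with the next mouse at 2737 CPM, and 2119 CPM in P301S Cgas-/- replicate 1, with the next at 2657 CPM. P301S Cgas+/+ replicate 3 had the lowest median UMIs per barcode of all libraries (2225). It was also the mouse in which 50.6% of nuclei stayed unnamed. The part of library quality in its Mapt level was not tested. Gsk3b in oligodendrocytes was high in Cgas+/+ replicate 3 (224.2 CPM, next 204.8 CPM). Cdk5 in inhibitory neurons was high in P301S Cgas+/- replicate 4 (22.48 CPM, next 17.44 CPM).

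Cdk5r1 stood high in oligodendrocytes of P301S Cgas+/+ replicate 1 (15.21 CPM, next 7.525 CPM) and in microglia of P301S Cgas+/- replicate 5 (32.54 CPM, next 19.92 CPM). Mark2 was high in inhibitory neurons of P301S Cgas-/- replicate 2 (153.3 CPM, next 136.3 CPM) and low in microglia of Cgas+/+ replicate 5 (253.9 CPM, next 304.6 CPM). Fyn was low in excitatory neurons of Cgas+/+ replicate 1 (198.6 CPM, next 222.2 CPM) and in inhibitory neurons of P301S Cgas-/- replicate 1 (196.7 CPM, next 237.6 CPM). In microglia Fyn was high in P301S Cgas+/- replicate 4 (222 CPM, next 95.8 CPM) and in P301S Cgas-/- replicate 5 (192.1 CPM, next 108.1 CPM).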

How the results depend on the processing

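Leaving out 1 mouse kept 160 of 165 results on their side of the threshold and in their direction, or within 1.5 times for counts, and the other settings kept 107 of 111. In the tau contrast the count of members called was 1 with no low-count filter (Cdk5r1 in microglia, log2 fold change -1.055), and 0 to 1 when 1 mouse was left out, the 1 being without P301S Cgas+/+ replicate 2 (-1.339). Over all 23 omissions that value lay between -1.339 and -0.865 (adjusted p 0.0197 to 0.264), and under 8 other settings between -1.129 and -1.04 (adjusted p 0.015 to 0.137). The 3 other lists together had 1 call with DESeq2, 3 with no low-count filter and 0 to 2 when 1 mouse was left out in the tau contrast, and 1 with DESeq2 in the deletion contrast. With P301S over all Cgas doses (alternatives chosen after seeing the data) the count of members called was 0 to 2 when 1 mouse was left out. It was 0 without Cgas+/- replicate 2 or Cgas-/- replicate 1, where Cdk5r1 in microglia was at -0.9549 and -0.8975, and 2 without P301S Cgas+/- replicate 4. Over 27 omissions Cdk5r1 lay between -1.111 and -0.886 (adjusted p 0.00126 to 0.0745). The cause was not tested. Log2 fold changes of members turned sign in 6.38% of pairs when 1 mouse was left out and in 6.44% under other settings, 0 of them with a call, and 6 of 648 levels moved by 1 SD or more when doublets or the gene maximum were treated differently. No paired analysis was possible because the labels number no replicates: the numbers used here name mice in accession order and pair none. Depth limits the members with few UMIs in microglia, among them Cdk5r1 with 6 to 28, Cdk5 with 3 to 23 and Ttbk1 with 1 to 19 per mouse.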
